A study of Mus musculus with 8 samples.

Results

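The 7 mouse genes that encode the subunits of phosphofructokinase (Pfkl, Pfkm and Pfkp) and the PFKFB enzymes (Pfkfb1, Pfkfb2, Pfkfb3 and Pfkfb4) were followed in endothelial cells of the neonatal mouse brain. They were found by matching the gene identifiers of the 8 deposited count tables to symbols of GENCODE release M21 (GRCm38), and all 7 had a row among the 25700 rows of each table. The KO group held 4 pups labelled GLUT1EC-/-, in which the glucose transporter GLUT1 (Slc2a1) is knocked out in endothelial cells, and the WT group held 4 wild-type pups, described as littermates. All pups were C57BL/6 and of postnatal day 6, and the cells were sorted by flow cytometry straight into lysis buffer without culture. The promoter that drives the deletion is not given in the sources used here. The comparison addresses how the transcriptome of brain endothelium differs once its main glucose transporter is lost, read here at the step that commits sugar to glycolysis.

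Phosphofructokinase phosphorylates fructose 6-phosphate and is a main control point of glycolysis. It is a tetramer of liver-type (PFKL), muscle-type (PFKM) and platelet-type (PFKP) subunits, which differ in how strongly metabolites inhibit or activate them. The PFKFB enzymes carry a kinase and a phosphatase domain in the same chain, and they make and remove fructose 2,6-bisphosphate, the strongest known activator of phosphofructokinase. PFKFB3 has by far the highest kinase to phosphatase activity ratio among them and is known as a driver of glycolysis in sprouting endothelial cells.

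Library totals were 20.9 to 40.8 M counts (M for mega) in KO pups and 25.9 to 114 M counts in WT pups. KO pup 1 stood apart, with 13624 genes detected, and the remaining 7 libraries had 15756 to 17082. Slc2a1 checked the genotype labels, with 1386 to 1602 CPM (counts per M library counts, scaled by TMM) in KO pups and 2238 to 3726 CPM in WT pups. Its log2 fold change was -1.01 (SE 0.14, edgeR adjusted p 0.00619), and the groups did not overlap. The call was lost with a term for cage as the file names give it (-0.89, edgeR adjusted p 0.331), with 1 surrogate variable (-0.97, edgeR adjusted p 0.0683) and with a term for choroid plexus marker levels (-0.67, edgeR adjusted p 0.302). Counts over a whole gene do not show how much of it was deleted. The endothelial identity of the sort was checked by 10 markers including Pecam1, Cdh5 and Cldn5, none of which was at 0 in any library. Their summed level was 13920 to 15690 CPM in KO pups and 14760 to 15810 CPM in WT pups. None of the 10 was called, but Tek (-0.30) and Cldn5 (-0.12) were lower and Emcn (0.20) higher in all KO pups without overlap. Of all tested genes, 3.43% were lower and 3.77% were higher in KO without overlap. The summed levels of microglial, neuronal, oligodendrocyte and erythroid markers overlapped between the groups, and none of these markers was called by edgeR, DESeq2 or limma-voom. Their median log2 fold changes were 0.22, 0.27, 0.18 and -0.40 in that order. All 8 microglial markers were positive (0.08 to 0.64). By edgeR, 1 microglial, 0 neuronal, 1 oligodendrocyte and 1 erythroid marker had an unadjusted p under 0.05. Of the 14154 tested genes, 1575 had one. The 8 astrocyte markers, given further on, had a median log2 fold change of 1.06, and their summed level overlapped. Of these, 6 had an unadjusted p under 0.05, with Gja1 alone among them lower in KO, and DESeq2 called Fabp7 higher. In sorted bulk cells, fewer cells of a type and less RNA per cell cannot be told apart. Each library is a separate pup by its title, so p-values measure the spread between pups.

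Of the 7 genes, 1 changed: Pfkp fell in KO endothelium to 65.8% of its WT level, and the other 6 did not pass the test. The test called 0.389% of the 14154 tested genes in either direction, 0.113% as lower and 0.276% as higher in KO, and all 7 genes were among those tested. The median log2 fold change was -0.13 over the 7 genes and 0.00175 over all tested genes. In 2 of the 7, Pfkp and Pfkfb2, every KO pup lay under every WT pup in CPM, which was the case for 3.43% of all tested genes (7.19% did not overlap in either direction).

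**Figure D1:**
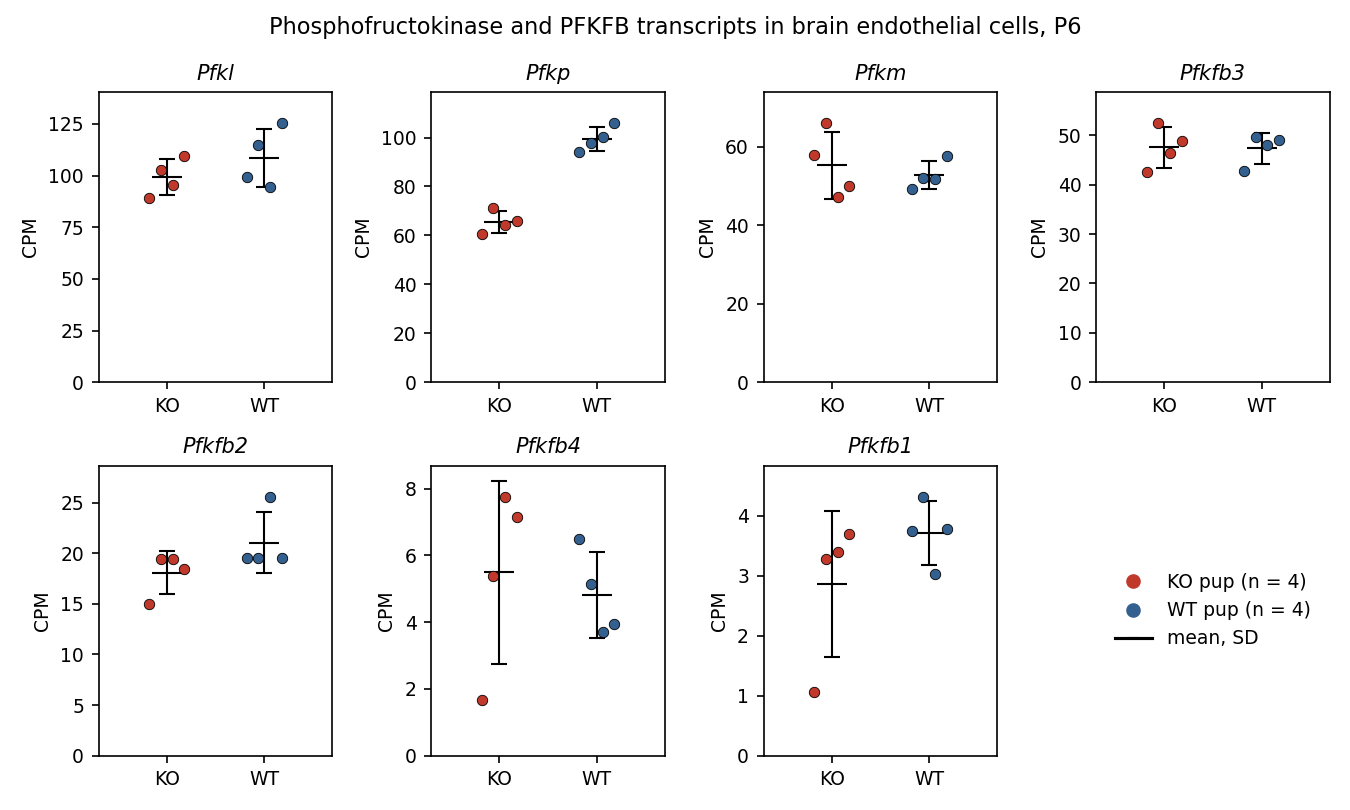
Level of each of the 7 genes in CPM (y axis, linear, starting at 0) in every KO pup (red, left) and WT pup (blue, right), with bars for the mean and SD of 4 pups. The 4 KO pups lie between 60.6 and 71.0 CPM for Pfkp, all under the WT pups at 94.2 to 106 CPM, while the other panels show overlapping or barely separated groups.

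Pfkp (ENSMUSG00000021196; GRCm38 chromosome 13, 6579768 to 6648777, minus strand) encodes the platelet-type subunit, which is also abundant in brain. Its levels were 60.6, 71.0, 64.4 and 65.8 CPM in KO pups 1, 2, 3 and 4, against 94.2, 97.8, 100.2 and 106 CPM in WT pups 5, 1, 2 and 3. Values in the other paragraphs follow the same order of pups. The groups were separated by a wide gap, since the highest KO pup was further from the lowest WT pup than the 4 pups of either group were from each other. KO pups averaged 65.5 ± 4.32 CPM, against 99.5 ± 4.91 CPM for WT pups (mean ± SD, n = 4 each). The log2 fold change was -0.60 (SE 0.08, 95% interval -0.77 to -0.43), the quasi-likelihood test of edgeR gave an adjusted p of 0.00467, and Pfkp ranked 24 by p among all tested genes. The values rest on 1263 to 2756 counts in KO libraries and 2390 to 11175 counts in WT libraries. A two-sided exact permutation test of the CPM gave p = 0.0286, the smallest that 4 against 4 pups allow.

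The lower level of Pfkp held in size but not in its call when cage was taken into account. The titles place WT pup 5 in the cage of all 4 KO pups, whereas the file names place WT pup 3 there. With a cage term the log2 fold change of Pfkp was -0.52 by the titles (edgeR adjusted p 0.33) and -0.69 by the file names (edgeR adjusted p 0.155). A fit of that cage alone, by the titles, gave -0.52 (edgeR adjusted p 0.329), and each of these 3 fits rests on 1 WT pup, the one caged with the KO pups. WT pup 5 had 94.2 CPM and WT pup 3 had 106 CPM, so that either one exceeded every KO pup. The call was also lost with 1 surrogate variable as a term (-0.57, edgeR adjusted p 0.061).

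**Figure D2:**
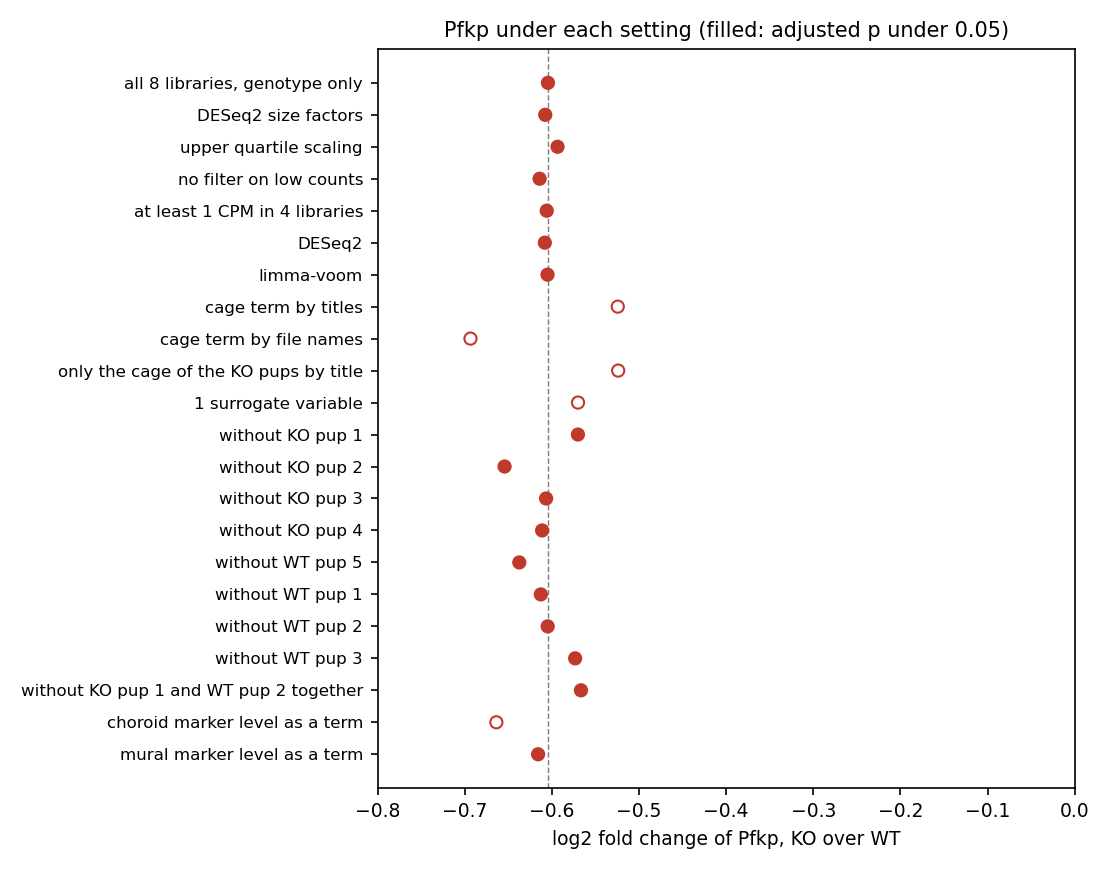
Log2 fold change of Pfkp, KO over WT (x axis), under 22 settings (rows; the block by pup number is not plotted), filled where the adjusted p was under 0.05. All plotted points lie between -0.69 and -0.52 and 5 of them are open: both cage terms, the KO cage alone, the surrogate variable and the choroid marker term.

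Markers of choroid plexus epithelium also had lower median levels in KO. The sum of 8 such markers was 440.8, 426.2, 304.9 and 681.2 CPM in KO pups and 2346, 750.6, 1232 and 639 CPM in WT pups. Most of the KO pups were under the WT pups, but KO pup 4 lay above WT pup 3. Enpp2 made up most of the sum in KO pups, with 329.1 CPM in KO and 338.7 CPM in WT (log2 fold change -0.04). Ttr averaged 120.6 CPM in KO and 866.1 CPM in WT. None of the 8 was called by edgeR, and DESeq2 called Aqp1 and Otx2 lower. By edgeR 5 of the 8 had an unadjusted p under 0.05, against 1575 of all 14154 tested genes. The markers lower in every KO pup were 3 of the 8 (Ttr, Aqp1 and Otx2), against 3.43% of all tested genes. The median log2 fold change of the 8 was -1.62, and Kl, Otx2 and Kcnj13 were each at 0 in 1 library. With the choroid marker level as a term the log2 fold change of Pfkp was -0.66 (edgeR adjusted p 0.112), a fit chosen after seeing the data. Mural cell markers summed to 1690 to 2561 CPM in KO pups and 457.5 to 2565 CPM in WT pups, and with their level as a term Pfkp had a log2 fold change of -0.62 and was still called.

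Reads of Pfkp can include some of Pitrm1, a mitochondrial peptidase gene on the opposite strand that shares 748 bp (5.58%) of the exons of Pfkp, because no source used here gives the strand setting of the counting. Pitrm1 averaged 53.6 ± 2.35 CPM in KO pups and 56.8 ± 6.24 CPM in WT pups, with a log2 fold change of -0.08 (edgeR adjusted p 0.805).

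The promoter of Pfkp is shown because Pfkp was the member that fell, and that of Pfkl beside it as the other phosphofructokinase gene with a single window in the table. Both are the 250 bases before the annotated start in RefSeq (GRCm38.p6), written 5′ to 3′ on the strand of the gene, with each GC box (GGGCGG on either strand, the sequence bound by factors of the Sp family) in capitals.
Pfkp, chr13:6648772-6649021, minus strand: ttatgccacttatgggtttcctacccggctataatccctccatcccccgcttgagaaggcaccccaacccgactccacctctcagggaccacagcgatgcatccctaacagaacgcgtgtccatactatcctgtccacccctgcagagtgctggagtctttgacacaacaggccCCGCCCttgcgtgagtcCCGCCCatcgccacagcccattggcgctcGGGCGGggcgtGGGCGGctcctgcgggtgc
Pfkl, chr10:78009808-78010057, minus strand: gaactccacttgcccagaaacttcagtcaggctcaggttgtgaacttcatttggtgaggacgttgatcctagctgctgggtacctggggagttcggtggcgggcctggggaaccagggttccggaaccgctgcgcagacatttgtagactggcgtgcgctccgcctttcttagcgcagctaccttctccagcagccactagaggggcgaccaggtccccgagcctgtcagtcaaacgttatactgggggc
The Pfkp window held 4 GC boxes, whose first bases lay 76, 59, 30 and 19 bases before the start, and the Pfkl window held 0. The Pfkl window lies wholly inside the Pfkl gene of GENCODE M21, which runs to 78010083. The Pfkp gene of GENCODE M21 ends at 6648777, so nearly all of the Pfkp window lies outside it. Among the other genes that did not pass, the Pfkfb4 window held 2, Pfkfb1, Pfkfb2 and Pfkfb3 each had at least 1 window with 2, and the windows of Pfkm held 0. Of 32851 promoter windows of the same length in the table, 32.7% held at least 1 GC box and 4.09% held 4 or more. Neither window held the E-box CACGTG (6.02% of all windows) or the core ACGTG of hypoxia response elements (16.6%), both searched on either strand, and every CACGTG also counts as an ACGTG. GC content was 62.8% for Pfkp and 59.2% for Pfkl, against a median of 52.4% over all windows. These are matches of letters in a fixed window, and no binding was measured here. All 7 genes matched RefSeq, with 16 windows in total.

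Pfkl (ENSMUSG00000020277; chromosome 10, 77986947 to 78010083, minus strand) encodes the liver-type subunit, which is widely expressed. It measured 89.4, 102.6, 95.2 and 109.7 CPM in KO pups, against 99.4, 114.7, 94.5 and 125.4 CPM in WT pups. The groups overlapped over most of their range. The means were 99.2 ± 8.83 CPM in KO and 108 ± 14.1 CPM in WT, and the log2 fold change of -0.13 (SE 0.10, 95% interval -0.36 to 0.10) did not pass (edgeR adjusted p 0.711).

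Pfkm (ENSMUSG00000033065; chromosome 15, 98092589 to 98132451, plus strand) encodes the muscle-type subunit, whose loss causes a glycogen storage disease in humans. It measured 57.90, 65.98, 47.11 and 49.97 CPM in KO pups, against 49.3, 52.0, 51.7 and 57.7 CPM in WT pups. KO pups 1 and 2 were the highest of all 8 and KO pup 3 was the lowest, so the KO values enclosed the WT values. The log2 fold change was 0.07 (SE 0.11, 95% interval -0.18 to 0.31, edgeR adjusted p 0.883). Senp1 on the opposite strand shares 18 bp of its exons and Gm26513 on the same strand shares 341 bp. Gm26513 was not found among the genes with counts.

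The change of Pfkp differed from that of both other subunits within the same libraries. The log2 ratio of Pfkp to Pfkl was -0.56, -0.53, -0.56 and -0.74 in KO pups and -0.08, -0.23, 0.08 and -0.24 in WT pups. The groups did not overlap, the difference was -0.48 (0.717-fold), and the two-sided exact permutation p was 0.0286. The log2 ratio of Pfkp to Pfkm was 0.07, 0.11, 0.45 and 0.40 in KO pups and 0.93, 0.91, 0.96 and 0.88 in WT pups. Here the WT pups lay close together and all above the KO pups, with a difference of -0.66 (0.631-fold, exact permutation p = 0.0286). The ratio of Pfkl to Pfkm differed by -0.18 and its groups overlapped (exact permutation p = 0.286). In all, 9 ratios were compared, 3 between the phosphofructokinase genes and 6 between the PFKFB genes, and their p-values are unadjusted. Since Pfkp was known to be lower, the direction of its ratios and shares is not independent of its fold change.

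**Figure D3:**
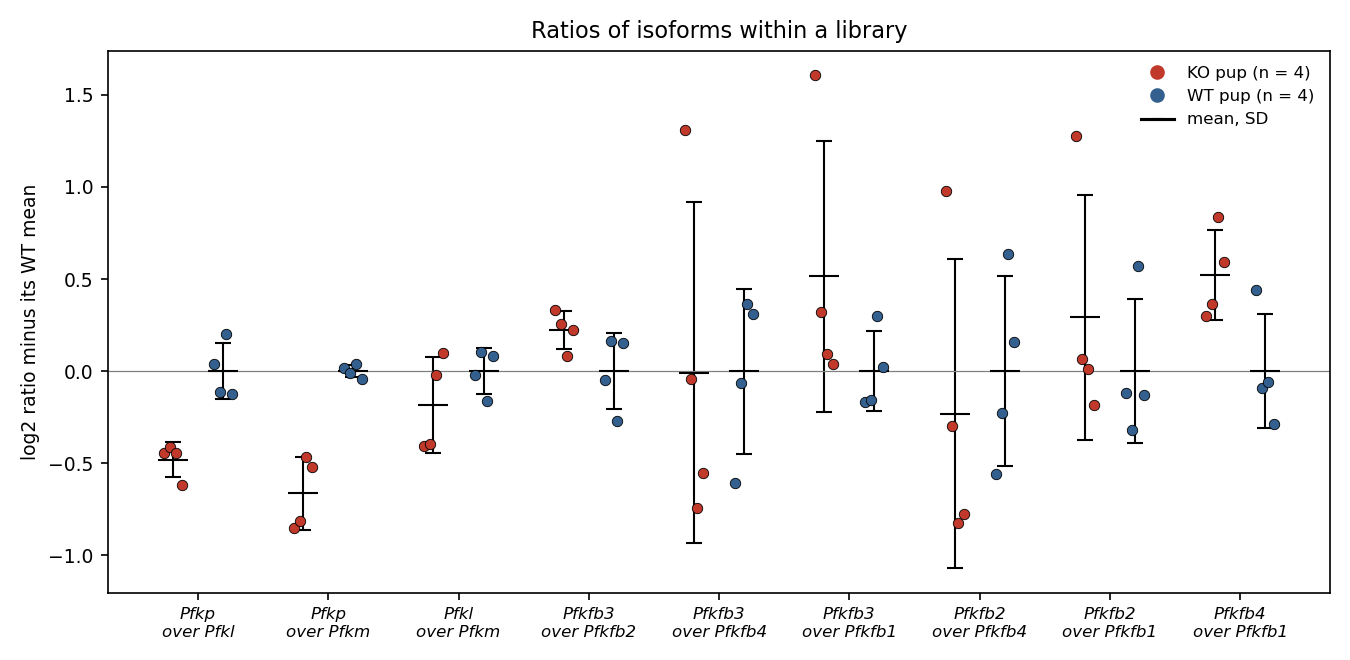
Log2 ratio of each pair of isoforms within a library, minus the WT mean of that ratio (y axis), in KO pups (red, left) and WT pups (blue, right), with bars for the mean and SD of 4 pups. Both ratios with Pfkp on top separate the groups, with all KO pups under all WT pups, by -0.48 and -0.66 on average, and the other 7 pairs overlap.

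Read per kb of merged exons, Pfkp was the smallest of the 3 phosphofructokinase pools in both genotypes, and smaller still in KO. Pfkp took 12.8%, 13.1%, 14.5% and 13.5% of the summed CPM per kb of the 3 genes in KO pups, against 19.2%, 18.2%, 20.2% and 18.0% in WT pups. No KO pup reached the lowest WT pup. The mean share was 13.5 ± 0.724% in KO and 18.9 ± 0.989% in WT, a difference of -5.39 percentage points (two-sided exact permutation p = 0.0286). The share of Pfkm was 45.5 ± 4.17% in KO and 40.0 ± 1.24% in WT, a difference of 5.42 points that did not pass (exact permutation p = 0.0571), with KO pups 1 and 2 at 49.2% and 48.9% and KO pup 4 at 41.2%. The share of Pfkl was 41.1 ± 3.65% in KO and 41.1 ± 2.22% in WT. Shares of 7 genes were compared, 3 in this family and 4 in the PFKFB family, under several gene lengths. The p-values of the shares are unadjusted.

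The sizes of these shares depended on the length used for each gene, because the merged exons of Pfkp (13401 bp) far exceed its longest coding transcript (4145 bp). Per kb of the longest coding transcript, a length chosen after seeing the data, the share of Pfkp was 25.7 ± 0.949% in KO and 33.7 ± 1.64% in WT, a difference of -8.05 points (exact permutation p = 0.0286). By that length the share of Pfkm was 5.45 points higher in KO and the groups no longer overlapped (exact permutation p = 0.0286), while that of Pfkl overlapped (2.60 points, exact permutation p = 0.229). Shares are parts of the same whole, so the share of Pfkm is not independent of that of Pfkp. The level of Pfkm itself did not pass (log2 fold change 0.07, edgeR adjusted p 0.883). The 3 genes summed to 220 ± 15.7 CPM in KO and 261 ± 21.1 CPM in WT without overlap. Per kb of merged exons they summed to 36.3 ± 3.05 in KO and 39.4 ± 3.35 in WT, and the groups overlapped.

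**Figure D4:**
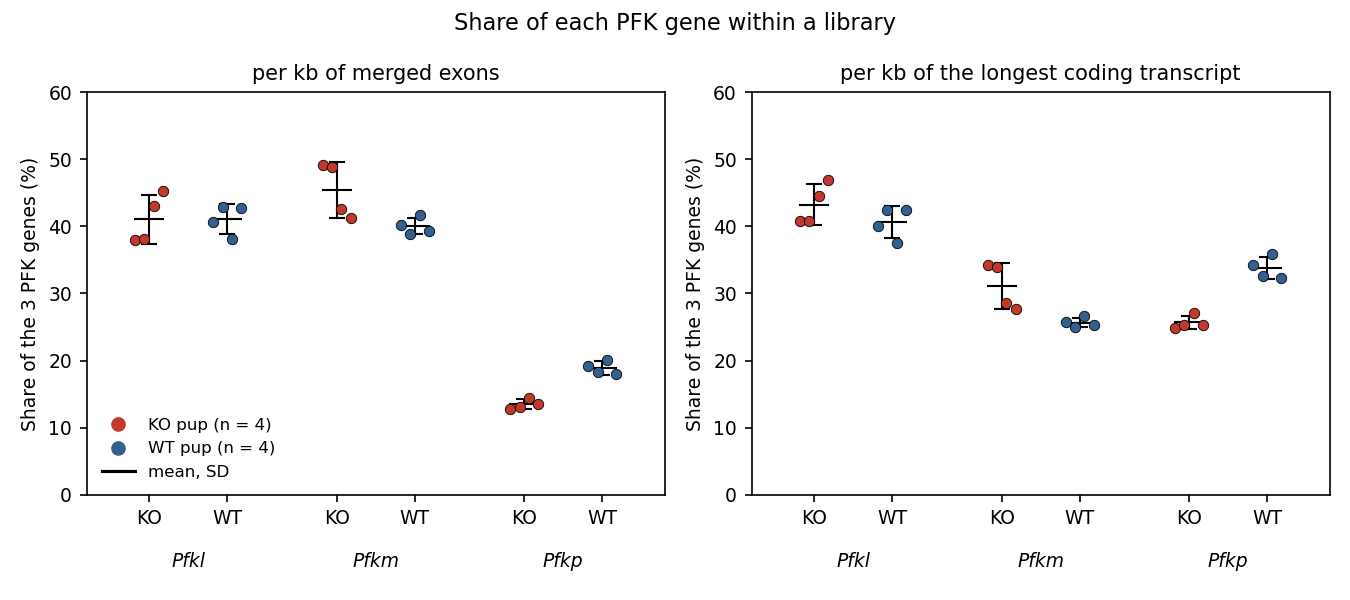
Share of Pfkl, Pfkm and Pfkp in their summed level per kb (y axis, percent, starting at 0) in KO pups (red, left) and WT pups (blue, right), by merged exons (left panel) and by the longest coding transcript (right panel), with bars for the mean and SD of 4 pups. All KO pups lie under all WT pups for Pfkp in both panels, with means of 13.5% in KO and 18.9% in WT on the left and 25.7% in KO and 33.7% in WT on the right, while the order of the 3 genes changes with the length.

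Pfkfb3 (ENSMUSG00000026773; chromosome 2, 11471433 to 11554077, minus strand) was the most abundant PFKFB transcript and did not pass the test. It measured 42.6, 52.5, 46.5 and 48.8 CPM in KO pups, against 42.8, 49.6, 48.0 and 49.1 CPM in WT pups. The groups covered the same range. The means were 47.6 ± 4.15 CPM in KO and 47.4 ± 3.14 CPM in WT, and the log2 fold change was 0.01 (SE 0.09, edgeR adjusted p 0.987). Its 95% interval of -0.19 to 0.21 corresponds to a KO level between 87.4% and 116% of the WT level. Its annotated neighbours share no exon with it.

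Pfkfb2 (ENSMUSG00000026409; chromosome 1, 130689182 to 130729253, minus strand), the enzyme best known from heart, measured 14.97, 19.44, 19.45 and 18.46 CPM in KO pups, against 19.54, 19.55, 25.6 and 19.52 CPM in WT pups. The groups did not overlap, but KO pups 2 and 3 and WT pups 5, 1 and 3 were almost equal, and the difference came mainly from the low KO pup 1 and the high WT pup 2. The means were 18.1 ± 2.13 CPM in KO and 21.1 ± 3.03 CPM in WT, and the log2 fold change of -0.22 (SE 0.14, 95% interval -0.53 to 0.08) did not pass (edgeR adjusted p 0.613). Without WT pup 2 it was -0.11. The predicted gene Gm29427 on the same strand shares 1262 bp, or 17.4% of the exons of Pfkfb2, so that reads of the 2 genes may have been split or lost. Yod1, a deubiquitinase gene on the opposite strand, shares 154 bp (2.12%).

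Pfkfb4 (ENSMUSG00000025648; chromosome 9, 108991778 to 109032228, plus strand), the enzyme best known from testis, measured 1.68, 5.39, 7.76 and 7.14 CPM in KO pups, against 6.50, 5.15, 3.70 and 3.93 CPM in WT pups. KO pups 3 and 4 were the highest of all 8 and KO pup 1 was the lowest, with 35 counts (95% Poisson interval 1.17 to 2.34 CPM, counting error only). The log2 fold change was 0.20 (SE 0.40, 95% interval -0.68 to 1.08, edgeR adjusted p 0.914). Without KO pup 1 it was 0.50 (edgeR adjusted p 0.47), and against WT pup 5 alone, the cage mate by title and the highest WT pup, it was -0.24. No direction can be given for Pfkfb4 from these libraries.

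Pfkfb1 (ENSMUSG00000025271; chromosome X, 150588229 to 150643878, plus strand), the enzyme best known from liver, measured 1.06, 3.27, 3.39 and 3.70 CPM in KO pups, against 3.74, 4.32, 3.02 and 3.77 CPM in WT pups. KO pup 1 again stood low, with 22 counts (95% Poisson interval 0.661 to 1.60 CPM), and the other KO pups lay within the range of the WT pups. The log2 fold change was -0.37 (SE 0.37, 95% interval -1.19 to 0.45, edgeR adjusted p 0.78), and -0.10 without KO pup 1. Apex2, a DNA repair gene on the opposite strand, shares 123 bp (3.06%) of its exons.

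Within the PFKFB family, Pfkfb3 took more than any other gene in every library. Its share of the summed CPM per kb of merged exons was 59.8 ± 5.81% in KO and 56.5 ± 2.63% in WT, a difference of 3.31 points (two-sided exact permutation p = 0.4). The shares were 23.6 ± 1.05% in KO and 26.2 ± 3.30% in WT for Pfkfb2, 10.2 ± 4.45% in KO and 8.97 ± 2.64% in WT for Pfkfb4, and 6.45 ± 2.23% in KO and 8.35 ± 1.22% in WT for Pfkfb1. None of these 3 differences passed, with exact permutation p-values of 0.143 for Pfkfb2, 0.657 for Pfkfb4 and 0.171 for Pfkfb1. KO pup 1 widened the spread of the KO group, with 67.8% for Pfkfb3, 4.15% for Pfkfb4 and 3.16% for Pfkfb1. The 6 ratios between PFKFB genes all overlapped between the groups, and the smallest exact permutation p was 0.0857, for Pfkfb4 over Pfkfb1. The 4 genes summed to 74.0 ± 9.28 CPM in KO and 77.0 ± 3.34 CPM in WT.

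Ordered by level per kb of merged exons, Pfkl and Pfkm stood at the top of the 7 genes and did not differ from each other beyond their spread. Pfkl had 14.9 ± 1.32 CPM per kb in KO and 16.3 ± 2.12 in WT, and Pfkm had 16.5 ± 2.54 in KO and 15.8 ± 1.06 in WT. Pfkp and Pfkfb3 came next and changed places: Pfkp had 4.88 ± 0.323 CPM per kb in KO and 7.43 ± 0.366 in WT, whereas Pfkfb3 had 6.30 ± 0.549 in KO and 6.27 ± 0.415 in WT. Pfkfb2 followed with 2.49 CPM per kb in KO and 2.90 in WT. Pfkfb4 (1.13 ± 0.561 in KO and 0.989 ± 0.265 in WT) and Pfkfb1 (0.711 in KO and 0.924 in WT) were lowest and lay within each other's spread. Per kb of the longest coding transcript Pfkp had 15.8 ± 1.04 in KO and 24.0 ± 1.18 in WT, above Pfkfb3 in both genotypes. In WT it was also above Pfkm at 18.3 ± 1.23. By that length Pfkl lay above Pfkm without overlap in both genotypes. The pups had 23.96 to 29.4 for Pfkl and 16.36 to 22.92 for Pfkm in KO. In WT they had 25.34 to 33.61 for Pfkl and 17.12 to 20.03 for Pfkm.

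The phosphatases that oppose phosphofructokinase did not pass the test by edgeR, DESeq2 or limma-voom, nor at an unadjusted p under 0.05. Tigar, a phosphatase that removes fructose 2,6-bisphosphate, had 6.65 ± 1.18 CPM in KO and 6.52 ± 1.30 CPM in WT (log2 fold change 0.03, edgeR adjusted p 0.98). The gluconeogenic Fbp1 averaged 0.414 CPM in KO and 0.460 CPM in WT. Fbp2 was removed by the filter on low counts before the edgeR fit and had 0 counts in 4 of the 8 libraries, which allows up to 0.144 CPM in the shallowest library.

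No other glycolysis gene passed the test. Of 22 other glycolysis genes 17 were tested, and 0 rose and 0 fell by edgeR. An unadjusted p under 0.05 was found for 2 of the 17, and for 1575 of all 14154 tested genes. The median log2 fold change of the 17 was 0.01. DESeq2 and limma-voom also called 0 of the other glycolysis genes. Those with the smallest p were Bpgm, which makes the haemoglobin regulator bisphosphoglycerate (89.6 ± 7.30 CPM in KO and 106 ± 13.3 CPM in WT, log2 fold change -0.25, edgeR adjusted p 0.37), and Aldoc, the brain aldolase (13.3 ± 4.30 CPM in KO and 7.18 ± 3.62 CPM in WT, 0.90, edgeR adjusted p 0.415). Next came Gpi1, which makes fructose 6-phosphate (0.15, edgeR adjusted p 0.534), and Pgam1, a phosphoglycerate mutase (-0.19, edgeR adjusted p 0.623). Aldoc is also an astrocyte gene, and 8 astrocyte markers had a median log2 fold change of 1.06, with 0 called by edgeR (6 at an unadjusted p under 0.05), Fabp7 called higher by DESeq2, none at 0 in any library and a summed level of 331.5 to 442 CPM in KO pups and 343 to 398.5 CPM in WT pups. Gja1, which is not specific to astrocytes, made up most of that sum, with 254.8 CPM in KO and 299.2 CPM in WT (log2 fold change -0.23), while the other 5 with an unadjusted p under 0.05 had log2 fold changes of 1.03 to 1.43. Whether astrocyte RNA takes part in the level of Aldoc was not tested.

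**Figure D5:**
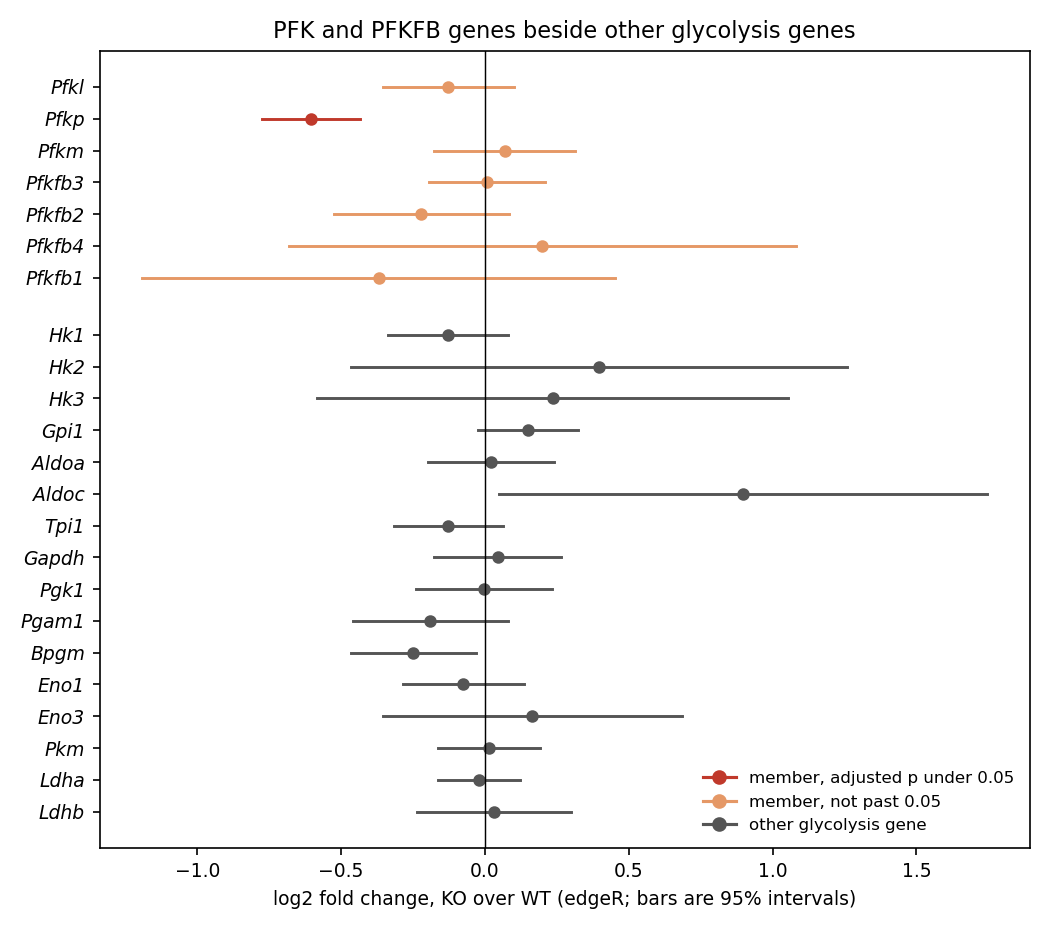
Log2 fold change, KO over WT (x axis), with 95% intervals from edgeR, for the 7 phosphofructokinase and PFKFB genes (upper block) and the other tested glycolysis genes apart from the barely detected Eno2 (lower block). Pfkp at -0.60 is the single gene of both blocks past an adjusted p of 0.05.

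Regulators of the PFKFB enzymes also gave no calls by edgeR. Unadjusted p-values under 0.05, counted below for each list, were found for 1575 of all 14154 tested genes. AMPK, a kinase that activates PFKFB2 and PFKFB3 by phosphorylation, had 6 of its 7 subunit genes tested, with 0 called by edgeR and 1 at an unadjusted p under 0.05. That 1 was Prkag2, a regulatory subunit, with 32.4 ± 2.11 CPM in KO and 47.4 ± 5.83 CPM in WT and no overlap. Its log2 fold change was -0.55 (SE 0.10, edgeR adjusted p 0.063), and it passed by DESeq2 (adjusted p 0.00112) and by edgeR with no filter on low counts (adjusted p 0.0436) but not by limma-voom. Prkab1, a scaffold subunit, measured 0.17 (edgeR adjusted p 0.45). The 5 genes of the ubiquitin ligases that mark PFKFB3 for degradation gave 0 calls by edgeR, DESeq2 or limma-voom and 0 at an unadjusted p under 0.05, with Btrc at -0.16 (edgeR adjusted p 0.677) and Fbxw11 at -0.09 (edgeR adjusted p 0.713). Hypoxia factors regulate Pfkfb3 and Pfkfb4 in hypoxic cells. Of 12 genes for such factors, their oxygen sensors and their targets, 0 were called by any of the 3 tools and 2 had an unadjusted p under 0.05. These were the oxygen sensors Egln1 (log2 fold change -0.25, edgeR adjusted p 0.361) and Egln3 (-1.16, edgeR adjusted p 0.402).

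For each gene, the 3 genes most like it across the 8 libraries were named by Pearson's r of log2 CPM over 9689 genes (9690 for Pfkfb1 and Pfkfb4), as a description, since the points share genotype, cage and depth. For Pfkp these were Six5 (r = 0.974), Plcb3 (0.966) and Mapk7 (0.96). For Pfkl they were Clptm1l (0.946), Tomm6 (0.929) and Ndufa7 (0.927), and for Pfkm they were Xpa (0.945), Ndufaf7 (0.927) and Cog1 (0.921). Pfkfb3 was nearest to Usp5 (0.932), Eed (0.932) and Gfm2 (0.927), and Pfkfb2 to Suz12 (0.966), Ldlrad4 (0.961) and Grasp (0.958). Pfkfb1 was nearest to Cdpf1 (0.994), Zfp787 (0.985) and Adal (0.984), and Pfkfb4 to Stxbp2 (0.979), Ugt1a6b (0.977) and Ugt1a6a (0.975). Pfkfb1 and Pfkfb4 both had their lowest value in KO pup 1.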

How the data were processed

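RNA of sorted brain endothelial cells was profiled in 8 libraries, 4 KO and 4 WT, grouped by the genotype label. Per the labels' protocols, stranded poly(A) libraries were sequenced as single-end reads of 100 bp. The authors deposited whole-number counts per gene, and the submitters' processing notes name STAR, featureCounts and GRCm38. No source used here gives tool versions, the annotation or the strand setting. GENCODE M21 symbols and exon lengths matched 25664 of 25700 identifiers.

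The test was that of edgeR 4.0.16 under R 4.3.3 (filterByExpr, minimum count 10, minimum total 15, TMM factors 0.978 to 1.026, quasi-likelihood F test with genotype as the only term) over 14154 genes, with Benjamini-Hochberg adjustment over all of them and a threshold of 0.05. The fit was tested on simulated data. Levels are CPM, given as mean ± SD over 4 pups. Ratios used log2 CPM with a prior count of 2. Shares were formed from CPM per kb of merged exons. Single values were compared by two-sided exact permutation tests over 70 assignments, or over fewer where 1 library was left out. A limit of 3 counts for a count of 0 amounted to 0.0269 to 0.144 CPM and covers counting error only. No 2 libraries held the same counts (chi-square of at least 13.9 per gene).

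Alternatives changed the scaling, the filter, the test (DESeq2 1.42.0, limma-voom 3.58.1), the terms (cage, pup number, 1 surrogate variable from sva 3.50.0), the gene length and the libraries. Terms for choroid and mural marker levels and the length of the longest coding transcript were added after seeing the data. Named genes are the 7 members, genes that share their exons, Slc2a1, 3 fructose bisphosphatase genes, the 2 genes with the smallest p of each related list (4 for glycolysis), and the 3 genes most alike to each member. The members and lists were chosen with earlier results of these data known. Promoter sequences are those of RefSeq for GRCm38.p6.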

Additional observations from a re-analysis of the deposited data

Results flagged for a closer look

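Of 46 groups of 4 libraries examined, 4 held a library set far apart from the other 3 by Dixon's criterion, which chance meets in about 1 in 20 groups. Pfkfb1 in KO pup 1 was at 1.06 CPM, against 3.27 to 3.70 CPM in the other KO pups. The same library gave a log2 ratio of Pfkfb2 to Pfkfb1 of 3.77, against 2.30 to 2.55 in the other KO pups. Pfkfb2 in WT pup 2, the deepest library, was at 25.6 CPM, against 19.52 to 19.55 CPM in the other WT pups. The log2 ratio of Pfkp to Pfkl in KO pup 4 was -0.74, against -0.56 to -0.53 in the other KO pups, and the difference between the groups was -0.43 without that pup. KO pup 1 also had the fewest detected genes, and whether that bears on its Pfkfb1 values was not tested.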

How the results depend on the processing

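Pfkp kept a negative log2 fold change in all 22 alternatives (-0.69 to -0.52) and was called in 16, and the number of the 7 genes called was 1 in those 16. It was 0 with a cage term by the titles or by the file names, within the KO cage by title, with pup number as a replicate block (log2 fold change -0.63, edgeR adjusted p 0.225, with Slc2a1 at an adjusted p of 0.0931), with 1 surrogate variable and with the choroid marker term. Pups that share a number by title did not deviate together (correlations of -0.0294, 0.0261 and -0.0711, with 0 of 3 matching best). Leaving out 1 library each gave -0.65 to -0.57 for Pfkp and 1 called gene each time. Over all genes, 55 were called, against 84 with no filter, 339 by DESeq2 (165 higher and 174 lower, against 39 and 16), 16 and 10 with the cage terms by titles and file names, 22 within the KO cage, 11 with the replicate block, 30 with the surrogate variable and 10 with the choroid term. Leaving out 1 library gave 32 to 85, with 85 without KO pup 1, 36 without KO pup 2 and 32 without KO pup 3. The causes were not tested, and the fit within the KO cage also held fewer WT pups. The share of Pfkp was lower in all 11 alternatives, by -8.48 to -4.97 points. The share of Pfkm passed with no length correction (4.86 points), per kb of the longest coding transcript (5.45) and without KO pup 4 (6.83), with 4.18 to 6.83 points over the libraries left out. That share is not independent of the lower share of Pfkp. The ratio of Pfkfb4 to Pfkfb1 ranged from 0.42 to 0.67 with 1 library left out and passed without WT pup 5. The Pfkm share without KO pup 4 and this ratio without WT pup 5 had an exact permutation p of 0.0286, the smallest possible. Pfkfb1 and Pfkfb4 had as few as 22 and 35 counts, in KO pup 1, whose counting intervals lie under those of the other KO pups, and the 95% intervals of their fold changes include the value of Pfkp.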

Other observations

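The reads of Pfkfb2 and of the predicted gene Gm29427, which shares part of its exons on the same strand, were also summed, a sum formed after the values were seen and given without a test. Gm29427 alone had 6.57, 6.63, 6.66 and 6.85 CPM in KO pups, against 8.75, 8.49, 11.8 and 8.62 CPM in WT pups. The groups did not overlap, and its log2 fold change of -0.50 did not pass (edgeR adjusted p 0.29). Together, Pfkfb2 and Gm29427 had 21.5, 26.1, 26.1 and 25.3 CPM in KO pups, against 28.3, 28.0, 37.4 and 28.1 CPM in WT pups. The KO mean was 24.8 ± 2.18 CPM and the WT mean 30.5 ± 4.60 CPM, so the KO level of the sum was 81.3% of the WT level.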
